A study of Mus musculus with 12 samples.

Results

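The genotype effect described here is the difference between 2 mouse genotypes in sorted paw myeloid cells, averaged over an uninflamed and an inflamed state. All 12 libraries of the series entered it, 6 pools a side, and treatment was kept as a block, so that the effect was taken within saline and within carrageenan and then averaged. The control mice were FABP5Flox (here Flox), and the others FABP5Flox/LysM-Cre (labelled LysMCre-cKO, here cKO). Adult mice of either genotype received sterile saline or 1% carrageenan, an irritant polysaccharide from seaweed, in the hind paw, and CD45+/CD11b+/Ly6G- cells were sorted from the paws 4 h later. Each of the 4 groups held 3 libraries, each a pool of 3 or 4 mice, so that a Flox group stands for 10 mice and a cKO group for 12. All groups carried the floxed Fabp5 alleles. No group carried LysM-Cre without them, so Fabp5 targeting, the presence of Cre and the altered Lyz2 allele cannot be told apart as sources of a difference. Which exons are flanked, and whether Cre was on 1 or both Lyz2 alleles, is not given in the sources used here.

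Fabp5 encodes a cytosolic chaperone of fatty acids and endocannabinoids, which delivers its ligands to enzymes and to nuclear receptors of the PPAR family. In LysM-Cre mice the recombinase coding sequence sits in Lyz2, the gene of the myeloid lysozyme, and is active in monocytes, macrophages and neutrophils. Lyz1 is the neighbouring lysozyme gene, best known from intestinal Paneth cells. Macrophages of the skin and paw comprise long-lived resident cells and cells newly derived from blood monocytes, which enter during inflammation.

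Values are normalized counts, in which the reads of a library were divided by 1 size factor, set separately for saline and for carrageenan libraries. Differences are cKO minus Flox in log2(value + 1), with the standard error (SE), from limma on the 10243 genes that reached 5 in 3 or more libraries, and a gene was called at a Benjamini-Hochberg adjusted p under 0.05. Reads in genes ran from 111925 to 994161 in Flox and from 508407 to 2987015 in cKO. The cKO libraries were 4.99 times deeper by geometric means (two-sided exact permutation test within treatments, p = 0.015), so depth moved with genotype. The labels name no batch. Flox saline pool 1-3, the shallowest library, and cKO carrageenan pool 9-12, the shallowest of cKO, stood apart from their groups, and results are given with and without them. Both were picked from these same data. Leaving out a library that lies far from its group can lower p by itself, so results without them are not separate support. Pools were of separate mice by the numbers in their titles within a group. The labels do not say whether same-numbered saline and carrageenan pools came from the same mice, in which case p-values over 12 libraries would be too small. The sort markers matched the label: Itgam (CD11b) was between 290 and 398 in every library, Ptprc (CD45) between 228 and 576, and Ly6g was at 0 in 9 of 12 libraries and at most 2.54.

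Over the 10243 genes, 6 were called (0.0586%), and all 6 were higher in cKO. They were the lysozyme gene Lyz1, the heat shock genes Hspa1b, Hspa1a and Hsph1, the chemokine gene Ccl8, and Arc, an immediate early gene at very low level. No gene was called lower. At an unadjusted p under 0.05 there were 1611 genes, 1050 higher (10.3%) and 561 lower (5.48%), and the median difference over all genes was 0.23. With edgeR's quasi-likelihood test on the recovered reads, 104 genes were called (1.02%), 32 higher (0.312%) and 72 lower (0.703%), the same 6 among them. The excess of higher genes was not seen there: at an unadjusted p under 0.05 edgeR had 881 higher and 855 lower. Its median log2 fold change over all genes was 0.051. In 261 genes (2.55%), the 6 included, the genotypes did not overlap in either treatment and differed in the same direction. DESeq2 called 416. Without both libraries that stood apart, limma called 720 of 10005 genes (253 higher, 467 lower), again with the 6. Leaving out cKO carrageenan pool 9-12 alone gave 202 calls, whereas leaving out either of the other cKO carrageenan pools gave 0. With the pool number as a block within genotype, limma called Lyz1 and Hspa1b and not the other 4.

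The start regions of 5 genes are printed here, because 3 of the called genes are heat shock genes, of which Hspa1a and Hspa1b are near-copies, and because Lyz1 was higher in cKO while Lyz2, called by edgeR and not by limma, was lower there. Each run holds the 250 bases before the RefSeq transcription start (GRCm38.p6), 5′ to 3′ on the gene's strand, which is the minus strand for all 5. RefSeq gives Hsph1 2 starts 21 bases apart, and the window of the upstream start, the first one listed, is printed. RefSeq held such a window for 6 of the 8 genes looked up (also for Ccl8, but not for Arc or Fabp5). Capitals mark 8-letter matches of the heat shock element, the site bound by heat shock factors.
Hspa1a chr17:34972157-34972406: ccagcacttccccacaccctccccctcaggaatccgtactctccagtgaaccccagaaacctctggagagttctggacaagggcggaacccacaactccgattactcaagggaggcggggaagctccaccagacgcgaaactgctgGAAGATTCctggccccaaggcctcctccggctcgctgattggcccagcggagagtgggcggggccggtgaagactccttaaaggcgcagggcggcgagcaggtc
Hspa1b chr17:34959239-34959488: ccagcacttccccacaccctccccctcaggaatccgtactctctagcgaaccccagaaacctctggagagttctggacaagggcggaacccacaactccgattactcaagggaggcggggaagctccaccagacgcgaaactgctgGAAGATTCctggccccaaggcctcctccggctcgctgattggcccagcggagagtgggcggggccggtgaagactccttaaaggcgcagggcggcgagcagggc
Hsph1 chr5:149636337-149636586: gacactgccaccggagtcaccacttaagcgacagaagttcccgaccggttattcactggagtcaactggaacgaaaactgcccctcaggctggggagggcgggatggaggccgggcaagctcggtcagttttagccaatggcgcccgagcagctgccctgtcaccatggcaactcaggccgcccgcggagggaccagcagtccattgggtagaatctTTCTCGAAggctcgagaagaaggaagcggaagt
Lyz1 chr10:117292869-117293118: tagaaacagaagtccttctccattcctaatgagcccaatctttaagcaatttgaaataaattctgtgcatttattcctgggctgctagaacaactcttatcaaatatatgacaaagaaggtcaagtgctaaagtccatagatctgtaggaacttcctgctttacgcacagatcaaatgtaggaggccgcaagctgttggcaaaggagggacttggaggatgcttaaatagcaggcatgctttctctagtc
Lyz2 chr10:117282273-117282522: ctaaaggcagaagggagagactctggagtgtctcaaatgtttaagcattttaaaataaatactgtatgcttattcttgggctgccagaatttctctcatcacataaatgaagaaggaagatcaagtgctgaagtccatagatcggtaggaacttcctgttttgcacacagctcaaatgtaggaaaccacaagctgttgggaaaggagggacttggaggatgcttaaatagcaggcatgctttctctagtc

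The Hspa1a and Hspa1b windows were identical at 98.8% of aligned positions, and the Lyz1 and Lyz2 windows at 79.4%. The motif search was made after the values were seen, in 2 rounds. The first round looked for GAANNTTCNNGAA on both strands and found it in none of the 6 windows. It stands in the windows of 0.514% of 27025 genes. The second round, run because the first gave no match, looked for its overlapping shorter parts GAANNTTC and TTCNNGAA, each of which reads the same on both strands. Hspa1a and Hspa1b each held 1 match of GAANNTTC, ending 96 bases before the start, and Hsph1 held 1 match of TTCNNGAA, ending 25 bases before the start used (46 before the other). The windows of Lyz1, Lyz2 and Ccl8 held neither. Of all genes with a window, 7.73% held GAANNTTC, 8.11% held TTCNNGAA and 14.5% held at least 1 of them, so a match of this length is common.

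The targeted gene was low and variable. Fabp5 (chromosome 3, 10012548 to 10016607, GRCm38) was at 5.46, 36.5 and 23.9 normalized counts in the Flox saline pools 1-3, 4-7 and 8-10, and at 6.36, 4.29 and 11.8 in the cKO saline pools 1-4, 5-8 and 9-12. The carrageenan pools had it at 43.1, 94.9 and 32.8 in Flox and at 6.01, 11.1 and 22.3 in cKO. The genotypes did not overlap after carrageenan, and overlapped after saline through Flox pool 1-3, whose value rests on 1 read. In all, 128 Fabp5 reads were counted in Flox and 125 in cKO, in spite of the deeper cKO libraries. The averaged difference was -1.63 ± 0.50 (limma adjusted p = 0.180), and edgeR called it lower (log2 fold change -2.02, adjusted p = 0.0207). An exact permutation test of the averaged difference, within treatments and two-sided, gave p = 0.025. With same-numbered pools averaged over treatments the exact permutation test gave p = 0.2, where 0.1 is the smallest possible. The difference was -1.20 ± 0.71 after saline and -2.06 ± 0.71 after carrageenan, and the gap between these was -0.86 ± 1.00 (limma adjusted p = 0.967). The averaged difference was -2.22 when both libraries that stood apart were left out (limma adjusted p = 0.00406). Since 1 of these is the Flox pool 1-3 that overlapped cKO, this smaller p is not separate support. In a fit with log2 depth as a further term the averaged difference was -1.39 (limma adjusted p = 0.9998). Fabp5 reads still present in cKO do not measure how many cells recombined, since a 3′ tag checks the deletion only if it lies in the deleted exons. In these pools, fewer cells of a type and less RNA per cell cannot be told apart.

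Lyz2, the gene that carries Cre, was the lower of the lysozyme pair. It was at 2906, 5174 and 5463 in the Flox saline pools and at 3093, 2858 and 2865 in the cKO saline pools. The carrageenan pools gave 5691, 4441 and 5695 in Flox and 1884, 2093 and 3390 in cKO. The carrageenan groups did not overlap, and after saline only Flox pool 1-3 lay among the cKO values. The averaged difference was -0.85 ± 0.23 (limma adjusted p = 0.160), which edgeR called (adjusted p = 0.0480) and the exact permutation test put at p = 0.01. With same-numbered pools averaged over treatments the exact permutation test gave p = 0.1, the smallest possible. The fit with log2 depth gave -1.01 (limma adjusted p = 0.9998).

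Lyz1 rose, with the smallest p of all genes. Lyz1 (chromosome 10, 117287797 to 117292868) was at 344, 559 and 423 in the Flox saline pools and at 756, 1102 and 1186 in the cKO saline pools. The values after carrageenan were 198, 239 and 231 in Flox and 604, 581 and 541 in cKO. The genotypes were apart in both treatments, by a factor of means of 2.30 after saline and 2.59 after carrageenan. The averaged difference was 1.28 ± 0.17 (limma adjusted p = 0.0124, exact permutation p = 0.005, the smallest that 400 arrangements can give). Since the genotypes were apart in both treatments, the permutation p was at its smallest by that alone and is not separate support. The difference was 1.20 ± 0.25 after saline and 1.37 ± 0.25 after carrageenan, with a gap of 0.17 ± 0.35. Over all 25 alternative settings the difference lay between 1.18 and 1.38, and it was called in 17 of them. It was 1.22 when both libraries that stood apart were left out (limma adjusted p = 0.00222).

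The Lyz1:Lyz2 ratio, which does not depend on a library's size factor, separated the genotypes in both treatments. It was 0.118, 0.108 and 0.0775 in the Flox saline pools against 0.245, 0.386 and 0.414 in cKO. Among carrageenan pools it was 0.0348, 0.0538 and 0.0406 in Flox against 0.321, 0.278 and 0.160 in cKO. In log2 the ratio was 2.14 higher in cKO (exact permutation p = 0.005). Its permutation p adjusted by Benjamini-Hochberg was 0.01, over the 4 values tested this way, with Fabp5, Lyz2 and Lyz1. As the ratio separated the genotypes in both treatments, its permutation p was at its smallest by that alone. The ratio is made of Lyz1 and Lyz2, so the 4 values are linked, and the adjustment does not cover the choice of genes. With same-numbered pools averaged over treatments the exact test gave p = 0.1, the smallest that its 20 arrangements can give. The transcripts of the pair are alike: they were identical at 92.0% of aligned positions, and at 93.8% over the last 300 bases, where a 3′ library reads, with a longest shared run of 104 bases. How the authors' counting treated reads that match both genes is not given in the sources used here, so a share of Lyz1 reads may come from Lyz2 transcripts or the reverse. The sum of both genes was 3250 to 5926 in Flox and 2488 to 4051 in cKO.

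**Figure D1:**
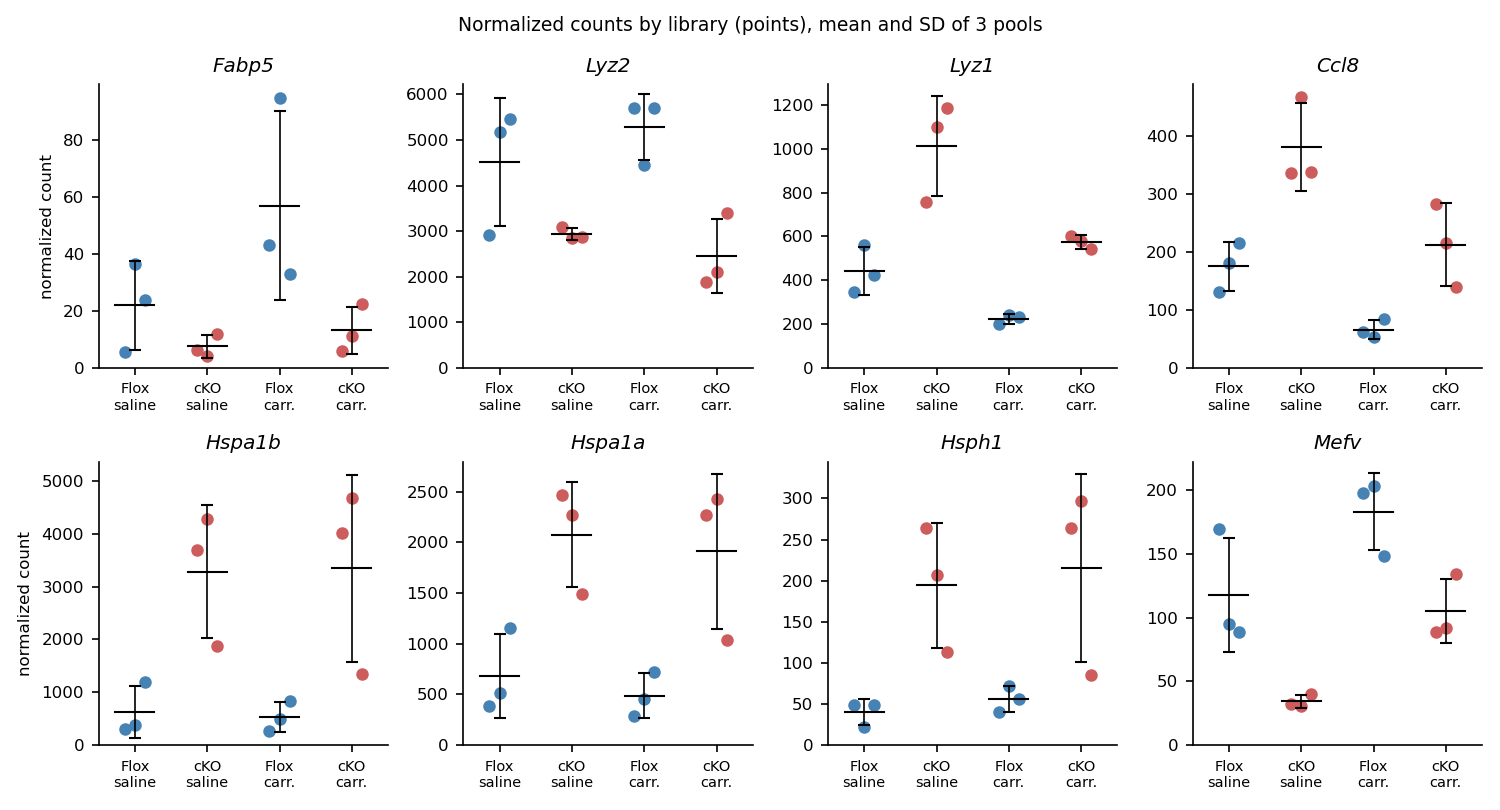
Normalized counts (linear axes from 0) of 8 genes in the 12 libraries, with each point a pool, bars the mean and whiskers the SD of 3 pools, Flox in blue and cKO in red. Lyz1, Ccl8, Hspa1b, Hspa1a and Hsph1 were higher in every cKO pool than in any Flox pool of the same treatment, and Mefv was lower, whereas Fabp5 and Lyz2 overlapped after saline through Flox pool 1-3.

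The genes around Lyz2 were described by position. Within 5 Mb, 36 of 203 annotated genes passed the filter, with a median difference of 0.18 against 0.23 over all genes. Lyz1 was the only 1 of them that limma called, and edgeR called Lyz1 higher and, as lower, Lyz2 and a processed pseudogene model. Over all genes limma called 0.0586%, and edgeR called 0.312% higher and 0.703% lower. At an unadjusted limma p under 0.05, 6 of the 36 were higher and 2 lower, against 10.3% and 5.48% of all genes. In 3 of the 36 every cKO pool was above every Flox pool of its treatment, against 1.76% of all genes. The tested genes of the region with the next smallest limma p were Xpot, which encodes a tRNA export receptor (1.21 ± 0.35, limma adjusted p = 0.164), and Tmbim4 (0.67 ± 0.21, limma adjusted p = 0.184).

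**Figure D2:**
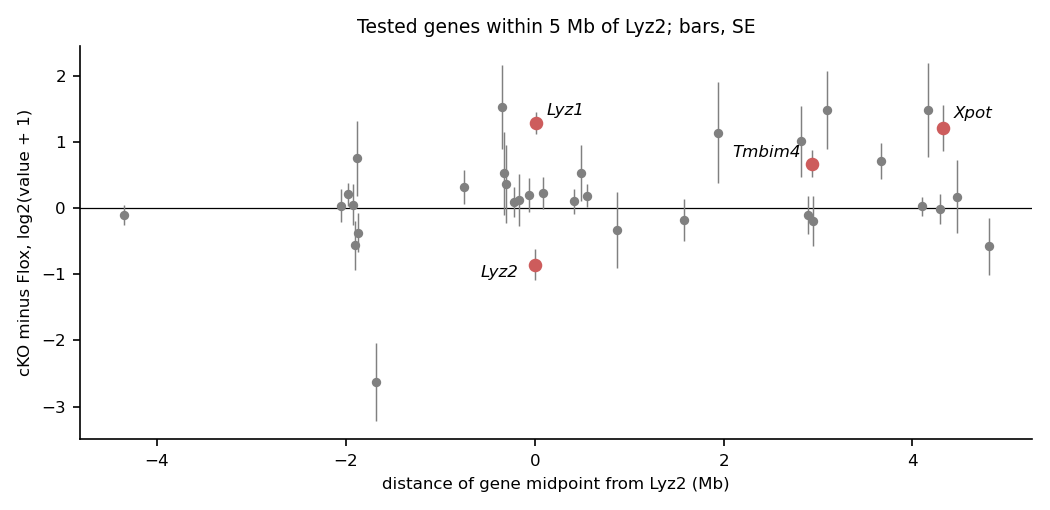
Difference between cKO and Flox in log2(value + 1), averaged over both treatments, against the distance of each gene's midpoint from Lyz2 in Mb, for the 36 tested genes within 5 Mb, with bars for the SE. Lyz1, at 1.28, and Lyz2, at -0.85, stand next to each other on opposite sides of 0.

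Heat shock genes made up 3 of the 6 calls. The inducible HSP70 proteins, encoded by Hspa1a and Hspa1b, refold damaged proteins, and Hsph1 encodes HSP110, the exchange factor that reloads them. Hspa1b (chromosome 17, 34956436 to 34959238) was at 306, 379 and 1200 in the Flox saline pools and at 3696, 4277 and 1868 in cKO. After carrageenan it was at 271, 484 and 833 in Flox and at 4017, 4683 and 1337 in cKO. The genotypes were apart in both treatments, and the pool nearest to the other genotype was the deepest of Flox and the shallowest of cKO in both treatments. The averaged difference was 2.59 ± 0.39 (limma adjusted p = 0.0350), at 2.57 after saline and 2.61 after carrageenan.

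Hspa1a, its neighbour, rose by 1.85 ± 0.31 (limma adjusted p = 0.0396), from a Flox range of 287 to 1153 (median 483) to a cKO range of 1035 to 2463 (median 2273). Hsph1 (chromosome 5) rose by 2.01 ± 0.33 (limma adjusted p = 0.0396). It ran from 21.9 to 72.0 in Flox (median 49.0) and from 84.8 to 297 in cKO (median 235), with no overlap over all 12 libraries. The Hspa1a and Hspa1b transcripts were identical at 45.2% of aligned positions over their last 300 bases, with no shared run above 10 bases there, although a run of 638 bases is shared elsewhere. Hspb1, which encodes the small chaperone HSP27, was at 0 to 58.0 in Flox and 61.0 to 235 in cKO. Its difference of 2.90 ± 0.76 missed the limma threshold (adjusted p = 0.160), and edgeR called it (log2 fold change 1.98, adjusted p = 0.0177).

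Beyond these genes, no member of the chaperone family was called by limma or edgeR. Of 77 heat shock protein and DnaJ genes, a family collected by symbol after the values were seen, 61 were tested, 3 were called higher by limma and 4 by edgeR, 14 were higher and 1 lower at an unadjusted p under 0.05, and the family's median was 0.28 against 0.23 over all genes. In 5 of the 61 every cKO pool was above every Flox pool of its treatment, as in 180 of all 10243 genes (1.76%). Over all genes 10.3% were higher and 5.48% lower at an unadjusted p under 0.05. Hspa8, the constitutive HSP70, was at -0.61 ± 0.26 and Hsp90ab1 at 0.04 ± 0.24, neither called. Among the 18 immediate early and dissociation genes, which respond to tissue digestion and sorting, Hspa1a and Hspa1b were called, and 5 were higher at an unadjusted p under 0.05. Jun was at 0.79 ± 0.19 with no overlap in either treatment, whereas Fos was at 0.33, Egr1 at 0.11 and Fosb at -0.56, and none of these was called.

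Arc was counted at very low depth. It had 0, 0 and 4 reads in the Flox saline pools and 0, 0 and 2 in the Flox carrageenan pools, against 40, 39 and 20, and 46, 75 and 5, in cKO. The fitted difference was 3.17 ± 0.54 (limma adjusted p = 0.0476), a size that depends on the added 1.

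Depth ran along with the heat shock genes, also within a genotype. In Flox, Hspa1b was at 1200 and 833 in the deepest libraries, of 637238 and 994161 reads, and at 271 to 484 in the other 4. In cKO it was at 1337 in the shallowest library and at 1868 in the next, of 1145606 reads. A fit with log2 depth as a further term called no gene, with 116 at an unadjusted p under 0.05, and it moved the median over all genes from 0.23 to -0.096. There Arc was at 1.88, Lyz1 at 1.18, Hsph1 at 1.30, Hspa1b at 1.04, Ccl8 at 0.78 and Hspa1a at 0.74, each with a limma adjusted p of 0.9998. Hspb1, at 2.90 in the main fit and not called there, was at 0.47 with depth (limma adjusted p = 0.9998).

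Within a treatment, the order of depth was reversed in 1 pair of libraries: the Flox carrageenan pool 8-10, with 994161 reads, was deeper than the cKO carrageenan pool 9-12, with 508407. This pair was chosen after the values were seen and has no replicate. There Lyz1 was at 231 in Flox and 541 in cKO, Ccl8 at 83.8 and 140, Hspa1b at 833 and 1337, and Hsph1 at 55.4 and 84.8. Since no called gene overlapped between genotypes within a treatment, this order was given by that already. Fabp5 was at 32.8 and 22.3 there, and Lyz2 at 5695 and 3390. Rpl29, which encodes a ribosomal protein, went the other way, from 73.6 to 114. What share of any difference goes with depth was not tested beyond the fit with depth.

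**Figure D3:**
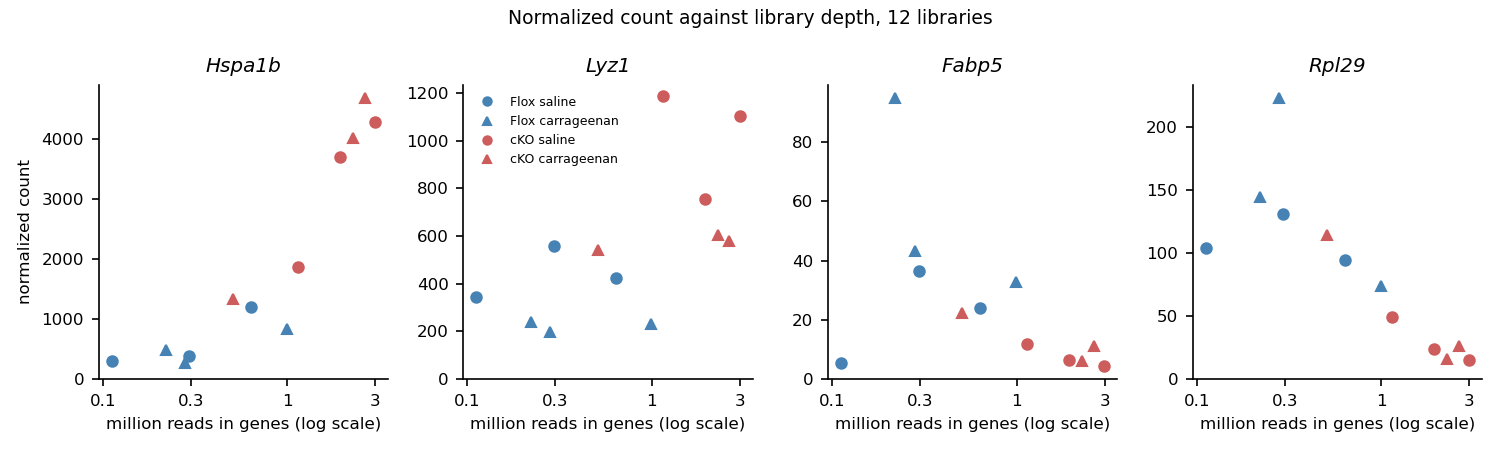
Normalized count of Hspa1b, Lyz1, Fabp5 and Rpl29 (linear axes from 0) against library depth, the reads in genes (log axis), in the 12 libraries, Flox in blue and cKO in red, circles for saline and triangles for carrageenan. Hspa1b was higher and Rpl29 lower in deeper libraries, whereas Lyz1 of the shallowest cKO library, 541, stood above every Flox carrageenan library.

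Ccl8, which encodes a monocyte-attracting chemokine made by macrophages, rose. Ccl8 (chromosome 11, 82115185 to 82116799) was at 131, 180 and 215 in the Flox saline pools and at 335, 467 and 337 in cKO. After carrageenan it was at 60.9, 52.4 and 83.8 in Flox and at 282, 215 and 140 in cKO. No cKO pool overlapped Flox within a treatment, and means differed by factors of 2.17 and 3.23. The averaged difference was 1.38 ± 0.22 (limma adjusted p = 0.0350), and the gap between treatments 0.53 ± 0.43 (limma adjusted p = 0.967).

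Among 22 tested cytokine and chemokine genes, Ccl8 was the only limma call, and edgeR also called Ccl4 and Cxcl10 higher. At an unadjusted p under 0.05, 7 were higher and 1 lower, and the median was 0.35, which was -0.20 in the fit with depth (against -0.096 over all genes there). In the main fit 10.3% of all genes were higher and 5.48% lower at that p, with a median of 0.23. Ccl4, a chemokine for monocytes and T cells, was at 1.31 ± 0.34 (edgeR adjusted p = 0.0437) and did not overlap in either treatment. Over all 25 alternative settings Ccl4 lay between 0.012 and 1.53, and between 0.98 and 1.53 with 1 library left out at a time. Cxcl10, an interferon-induced chemokine, was at 1.99 ± 0.63 (edgeR log2 fold change 1.28, adjusted p = 0.0358), at 3.12 after saline and 0.86 after carrageenan. Flox saline pool 1-3 had 0 Cxcl10 reads, and without it the averaged difference was 1.23. Over all 25 alternative settings Cxcl10 lay between 0.26 and 2.20. Its gap between treatments was -2.26 ± 1.15 (limma adjusted p = 0.967). The pain-related cytokine Il1b was at -0.62 ± 0.23, not called.

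Genes with the lowest p on the lower side missed the limma threshold and were called by edgeR. Mefv, which encodes pyrin, an inflammasome sensor, was at 169, 94.8 and 88.7 in the Flox saline pools and 32.2, 30.8 and 39.8 in cKO. After carrageenan it was at 198, 203 and 149 in Flox and 88.8, 91.9 and 134 in cKO. Every cKO pool was below every Flox pool of its treatment, as in 81 genes (0.791%). The difference was -1.25 ± 0.23 (limma adjusted p = 0.0774, edgeR adjusted p = 0.0178), with a gap between treatments of 0.89 ± 0.42 (limma adjusted p = 0.967). In the fit with log2 depth Mefv was at -0.52 (limma adjusted p = 0.9998).

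The same rule named 6 further protein-coding genes besides Rpl29, which is given with the ribosomal protein genes. Gpr132, a G protein-coupled receptor, was at -1.0 ± 0.20, and Itga5, the fibronectin-binding integrin subunit, at -1.11 ± 0.23. Cd244a, a receptor of the SLAM family, was at -1.38 ± 0.29, Pxdc1 at -1.04 ± 0.23, and Il4i1, an amino acid oxidase of antigen-presenting cells, at -1.50 ± 0.34. Tnip1, a partner of the NF-kB brake A20, was at -1.06 ± 0.23. Limma adjusted p ran from 0.122 to 0.146 in these, and edgeR called each of them lower. Over all 25 alternative settings the highest values were -0.42 for Gpr132, -0.61 for Itga5 and -0.89 for Cd244a. They were -0.67 for Pxdc1, -0.81 for Il4i1 and -0.67 for Tnip1, the last in the fit with depth. All 6 were lower in every cKO pool than in any Flox pool of the same treatment, as in 81 of all 10243 genes (0.791%). These 6 were picked by small p in the same libraries, so neither the edgeR calls nor the lack of overlap is separate support.

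The lower calls of edgeR held gene classes that the higher ones did not. All 32 higher calls were protein-coding genes, as were 9780 of the 10243 genes tested. Protein-coding genes were called at like rates in both directions, 0.327% higher and 0.348% lower. Of the pseudogenes tested 18.0% were called lower, and of the miRNA loci 57.1%. Of the 72 lower calls, 33 were pseudogenes, 4 were annotated miRNA loci and 34 were protein coding, of which 6 encode ribosomal proteins. Over the 183 pseudogenes tested the limma median was -1.29, and over the 7 miRNA loci -1.86, against 0.25 over 9780 protein-coding genes. Reads at a pseudogene may be shared with its parent gene, and reads at a miRNA locus in a 3′ mRNA library do not measure the mature miRNA.

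Ribosomal protein genes lay below the median of all genes. Of the 24 on the list 0 were called by limma or edgeR, 6 were lower and 0 higher at an unadjusted p under 0.05, and the median was -0.54. The shares over all genes were 5.48% lower and 10.3% higher, with a median of 0.23. Over all 70 tested ribosomal protein genes, collected after the values were seen, 67 were negative, the median was -0.69, and edgeR called 6 lower, against 0.703% of all genes. Rpl29 was at 104, 131 and 94.4 in the Flox saline pools and 24.0, 15.3 and 49.1 in cKO. After carrageenan it was at 223, 144 and 73.6 in Flox and 15.7, 26.6 and 114 in cKO, the last being pool 9-12. The cKO carrageenan pool 9-12 thus lay among the Flox pools, and the difference was -1.92 ± 0.42 (limma adjusted p = 0.138, edgeR adjusted p = 0.0303). Over all 25 alternative settings Rpl29 lay between -2.34 and -0.52. The processed pseudogene Rpl7-ps7 was at -1.64 ± 0.32 and the locus Mir703 at -1.76 ± 0.40, with that same pool at 99.7 and 604, among the Flox values. Without both libraries that stood apart, limma called 21 of the 24 lower, against 467 of all 10005 genes tested in that fit. The cKO libraries were also the deeper ones. In the fit with depth the median of the 24 was -0.46, against -0.096 over all genes, and it lay below that of all genes in each of the 25 alternatives, with none of the 24 called in the fit with depth.

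Resident macrophage genes lay on the higher side. Of 20 tested markers, 0 were called by limma and 1, Pf4, by edgeR, while 13 were higher and 0 lower at an unadjusted p under 0.05, and the median was 0.69. Over all genes 10.3% were higher and 5.48% lower at that limma p, the median was 0.23, and edgeR called 0.312% higher. Pf4, a platelet-type chemokine also made by resident macrophages, was at 2201, 3981 and 2959 in the Flox saline pools and 4179, 8120 and 3870 in cKO. In the carrageenan pools it was at 928, 609 and 983 in Flox and 4074, 3080 and 1034 in cKO. Flox and cKO overlapped after saline, and the cKO pool 9-12 lay just above Flox after carrageenan. The difference was 1.15 ± 0.33 (limma adjusted p = 0.164, edgeR adjusted p = 0.0373).

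Other markers of the list were of like size and not called. The carbonyl reductase Cbr2 was at 1.03 ± 0.28 and the complement genes C1qc and C1qb at 0.89 ± 0.24 and 0.88 ± 0.25. C1qa, the third gene of that complex, was at -0.46. Limma called 9 of the 20 higher without both libraries that stood apart, against 253 of all 10005 genes tested in that fit. In the fit with depth the median was 0.17, against -0.096 over all genes.

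Inflammatory monocyte genes lay on the lower side. Of 14 tested, 0 were called by limma or edgeR, 5 were lower and 1 higher at an unadjusted p under 0.05, and the median was -0.74. The shares over all genes were 5.48% lower and 10.3% higher, with a median of 0.23. Chil3, which encodes a chitinase-like protein, was at -0.98 ± 0.41. The receptor gene Ccr2 was at -0.19. Summed over the list, the values after carrageenan ran from 7644 to 9851 in Flox and from 4269 to 10760 in cKO, so that the cKO pools lay on both sides of Flox. The highest cKO sum was that of pool 9-12, in which Chil3 was at 492 and Ly6c2 at 504, against 65.1 and 146, and 107 and 177, in the other cKO carrageenan pools.

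**Figure D4:**
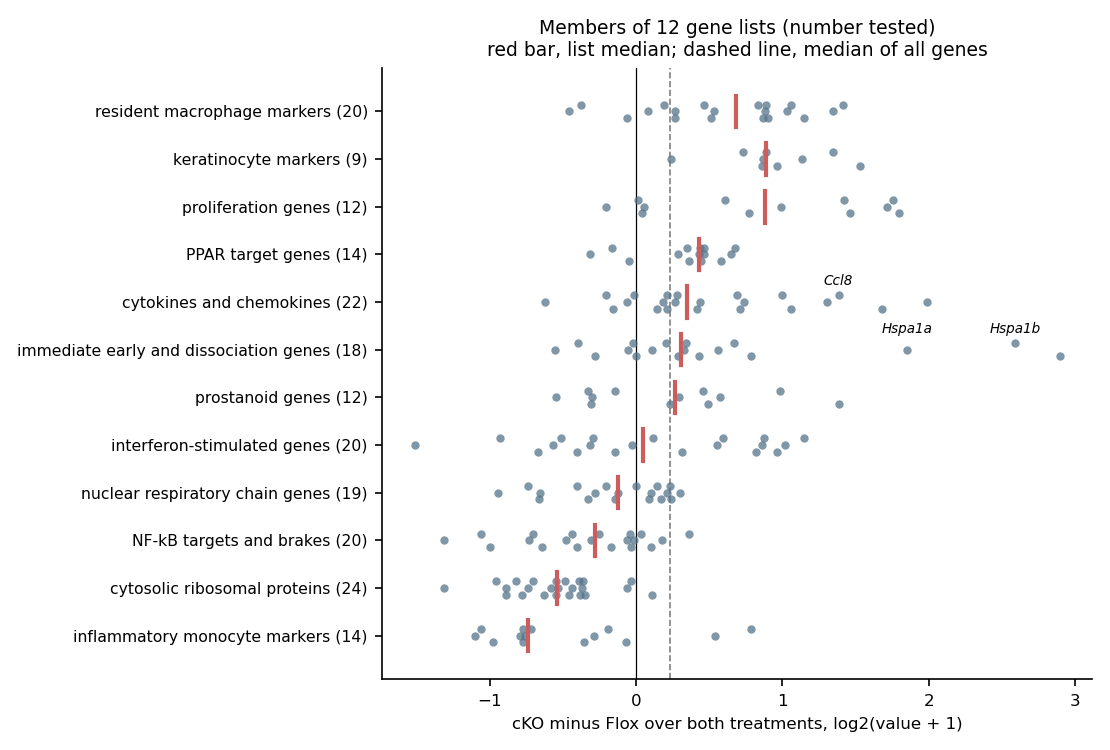
Averaged difference between cKO and Flox in log2(value + 1) for every tested member (points, spread vertically for view) of 12 gene lists, with the number tested in brackets, the list median as a red bar and the median of all genes, 0.23, as a dashed line. Labels name the limma calls, Ccl8, Hspa1a and Hspa1b. Resident macrophage markers lie mostly to the right and ribosomal protein, inflammatory monocyte and NF-kB genes mostly to the left.

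NF-kB genes lay slightly lower. Of 20 tested targets and brakes, 0 were called by limma and 1, Tnip1, was called lower by edgeR, with 7 lower and 0 higher at an unadjusted p under 0.05, and a median of -0.28. The shares over all genes were 5.48% lower and 10.3% higher, with a median of 0.23, and edgeR called 0.703% lower. After Tnip1 the smallest p were those of Nfkbie, Traf1 and Nfkb2, an inhibitor, an adaptor and a subunit of the pathway: Nfkbie was at -0.70 ± 0.19, Traf1 at -1.0 ± 0.27 and Nfkb2 at -0.64 ± 0.18. The subunit gene Nfkb1 was at -0.04 and the brake Tnfaip3 at -0.01. Limma called 6 of the 20 lower without both libraries that stood apart, against 467 of all 10005 genes tested in that fit.

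Of the lists of lipid genes close to the role of FABP5, limma called no member, and edgeR called Fabp5 alone. Of 14 tested PPAR target genes 0 were called by limma or edgeR, 3 were higher at an unadjusted p under 0.05, and the median was 0.43, which was -0.0043 in the fit with depth (against -0.096 over all genes). In the main fit 10.3% of all genes were higher at that p, with a median of 0.23. Without both libraries that stood apart, limma called 1 of the 14, Lpl, against 720 of all 10005 genes tested in that fit. Lpl, the lipoprotein lipase gene, was at 0.65 ± 0.24, Cd36, a fatty acid transporter, at 0.44 ± 0.20, and Plin2, a lipid droplet coat protein, at 0.47 ± 0.21. Of 20 genes of fatty acid uptake and storage 0 were called, with a median of 0.0019, and the triglyceride-forming Dgat1 was at -0.76 ± 0.26. Of 12 prostanoid genes 0 were called, with a limma median of 0.26 and an edgeR median of -0.21. The cyclooxygenase gene Ptgs2 was at -0.14, and the prostaglandin E2 receptor gene Ptger4 at 1.39 ± 0.49. Flox saline pool 1-3 had 1 Ptger4 read, and over all 25 alternative settings Ptger4 lay between -0.25 and 1.67. Of 14 leukotriene and endocannabinoid genes 0 were called, with a median of 0.29. Of 20 interferon-stimulated genes 0 were called, with a median of 0.05, from -1.51 for Oas1a to 1.15 for Oasl1. Oasl1 was at 0.45 without Flox saline pool 1-3 and at -0.15 in the fit with depth. Without both libraries that stood apart limma called 5 of the 20, all lower, against 467 of all 10005 genes lower.

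Markers of cells outside the sort were also counted. All 9 tested keratinocyte genes were positive, 5 were higher at an unadjusted p under 0.05, none was called by limma or edgeR, and the median was 0.89. Over all genes 10.3% were higher at that limma p, and the median was 0.23. Summed over 10 keratinocyte genes, the values were 377 to 715 in the Flox saline pools and 905 to 1803 in cKO, and 491 to 812 and 649 to 1143 after carrageenan, with an overlap after carrageenan alone. The keratinocyte genes Krt6a (edgeR log2 fold change 2.50) and Calm4 (1.48) were among the edgeR calls, named here after their values were seen. Neutrophil genes were at 36.5 to 81.9 in the Flox saline pools and 21.4 to 39.2 in cKO, and 383 to 700.4 and 139 to 678 after carrageenan, with Camp and Ngp at 0 in every library. Of the lymphocyte markers, Cd3d, Cd8a and Cd79a were at 0 in every library. Cd4, which was at 0 to 12 reads in Flox and 0 to 177 in cKO, was at 1.73 ± 0.86 (limma adjusted p = 0.342), and Ighm, an antibody chain gene, at 0.07 ± 0.28. Summed over the lymphocyte list, values were 43.7 to 91.0 in Flox and 105 to 120.2 in cKO after saline, and 43.7 to 52.4 and 20.8 to 43.7 after carrageenan. Gzma, a granzyme of cytotoxic lymphocytes, which edgeR called lower, had 36 reads in Flox and 4 in cKO. The part of other cell types in the genotype differences was not tested.

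Proliferation genes lay higher without a call. Of 12 tested, 5 were higher and 0 lower at an unadjusted p under 0.05, 0 were called by limma or edgeR, and the median was 0.88, which was -0.50 in the fit with depth (against -0.096 over all genes). In the main fit 10.3% of all genes were higher and 5.48% lower at that p, with a median of 0.23. Top2a, a topoisomerase of dividing cells, was at 1.76 ± 0.64 and Mki67, a marker of cycling cells, at -0.21. Hmox1 and Gclm, genes of the antioxidant response, were called higher by edgeR (log2 fold change 1.72 and 1.40) and named after their values were seen. Hmox1 was at 1255 to 4355 in Flox (median 1826) and at 1444 to 15014 in cKO (median 6679), and the genotypes overlapped. Over all 25 alternative settings its difference lay between 0.018 and 1.86, and between 1.25 and 1.86 with 1 library left out at a time.

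The effect after saline and the effect after carrageenan share no library, so they can be set side by side. They may still not be independent, since same-numbered cKO pools covaried between the treatments. Within saline alone, limma called 0 of 10243 genes, with 987 at an unadjusted p under 0.05, and within carrageenan 0, with 831; edgeR called 0 in either, with 810 and 1039 at an unadjusted p under 0.05. The test of the difference between the treatments also called 0 by limma and by edgeR, with 244 and 233 at an unadjusted p under 0.05. Across genes, which are not independent replicates and share the depth gap between genotypes, the effects had Pearson's r = 0.336 over 10243 genes, and 63.5% had the same sign. Over the 5636 genes with a mean of at least 20, r was 0.356 and 65.1% had the same sign. Among the 6 called genes the gap between the treatments lay between -0.49 for Hsph1 and 0.53 for Arc, each with a limma adjusted p of at least 0.967.

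**Figure D5:**
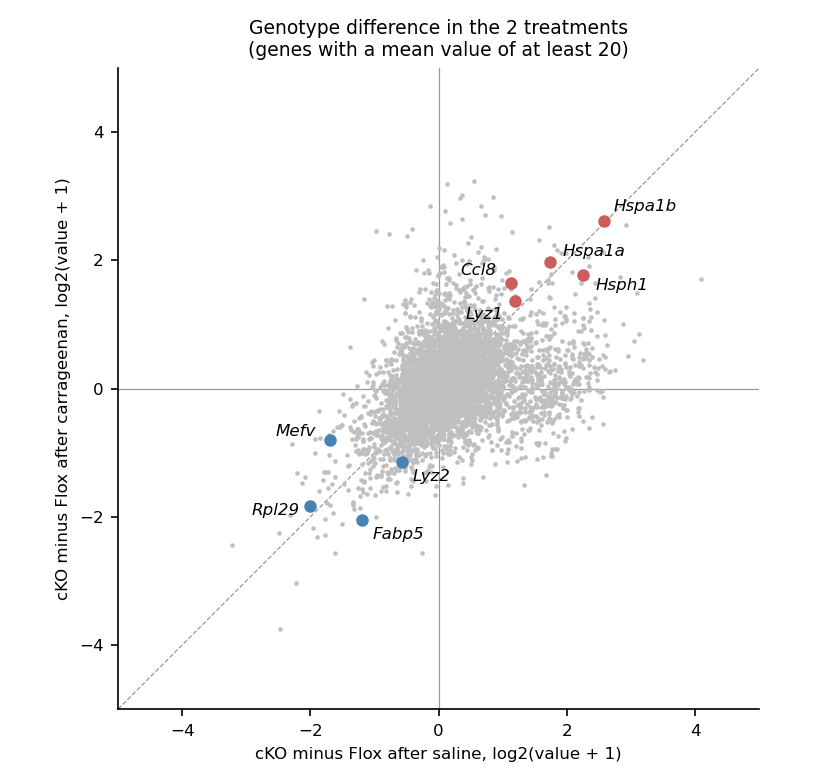
Difference between cKO and Flox in log2(value + 1) after saline (horizontal) and after carrageenan (vertical), for 5636 genes with a mean of at least 20 (grey); the dashed line marks equal differences. The 5 called genes of this level (red) lie near that line in the upper right, and Fabp5, Lyz2, Mefv and Rpl29 (blue) lie in the lower left.

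In the authors' deposited tables, which compare the genotypes within each treatment, 20 genes passed an adjusted p under 0.05 after saline, 5 higher and 15 lower in cKO, and 5 after carrageenan, all higher. Among the lower genes after saline, the authors' deposited table gives Mefv at -1.49 (adjusted p = 0.00608) and Rpl29 at -1.53 (adjusted p = 0.0256). The tables share 4 genes, which make up 20% of the saline and 80% of the carrageenan list: Hspa1a, Hspa1b, Hsph1 and Lyz1, all higher in cKO in both. For Ccl8 the authors' deposited tables give an adjusted p of 0.0874 after saline and 0.00688 after carrageenan. For Fabp5 the authors' deposited tables give a log2 fold change of -1.10 (adjusted p = 0.516) after saline and -1.52 (adjusted p = 0.0997) after carrageenan.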

How the data were processed

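RNA of sorted cells was made into 3′ mRNA libraries with unique molecular identifiers (LUTHOR kit) and sequenced with paired reads on a NovaSeq, per the labels' protocols. The submitters' processing notes name cutadapt, STAR and GRCm38; neither versions nor a counter nor an annotation is stated in the sources used here. The deposited tables hold a signal in normalized counts, scaled separately for saline and carrageenan. The authors' deposited comparison tables give a log2 fold change, a test statistic (a score), a p-value and an adjusted p-value per gene, per the file headers. Every value was a whole multiple of 1 step per library (100% of values, tolerance 0.001), so whole reads were recovered. Of 55401 gene IDs, 55141 matched GENCODE vM21 (GRCm38), which gave names and positions, and 121 entries that are not genes (0.170 to 2.23% of reads) were left out. No library of a group repeated another: a chi-square test of counts in pairs gave 3.00 to 18.7 per degree of freedom.

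Limma with a mean trend was applied to log2(value + 1), with treatment and genotype terms, chosen for normalized values and kept although reads could be recovered. The 2 within-treatment effects and their difference came from a fit of 4 group means. EdgeR's quasi-likelihood test (TMM) and DESeq2 ran on recovered reads, and DESeq2 gave no adjusted p for 2 genes. The exact permutation tests moved genotype labels within treatments. R 4.3.3, limma 3.58.1, edgeR 4.0.16, DESeq2 1.42.0, Python 3.11.15 and Biopython 1.88 were used, and the fits were tested on simulated data.

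The members, the gene lists, the tests and the naming rule were chosen with earlier results of these data known. Named genes were Fabp5, Lyz2 and Lyz1. To these were added the 12 largest rises and falls past the threshold with a mean of at least 20, or the 10 genes of smallest p where fewer than 5 met this. Up to 4 tested members of smallest p were taken per list, then the genes near Lyz2 and the 5 called genes of smallest p for the difference. Gene models were counted, not named; genes named outside the rule were, like other members given for contrast, chosen after their values were seen. Of the lists not described above, medians were -0.16 for dendritic cell and MHC class II, 0.07 for lymphocyte and 0.64 for fibroblast genes. They were 0.76 for endothelial and mural, 0.63 for muscle, 1.68 for red blood cell and 0.45 for mitochondrially encoded genes. They were -0.12 for nuclear respiratory chain, -0.17 for glycolysis, 0.05 for lysosome and 0.44 for histone genes. Limma called no member of these lists. The edgeR medians were lower, at 0.17 for fibroblast, 0.23 for endothelial and mural, 0.29 for muscle and 0.34 for red blood cell genes. After saline and after carrageenan the limma medians were 1.45 and 0.03 for fibroblast, and 1.71 and -0.16 for endothelial and mural genes. Muscle rested on 2 tested genes and red blood cell on 4.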

Additional observations from a re-analysis of the deposited data

How the results depend on the processing

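The 6 calls were 7 with 5 added in place of 1, 6 with log CPM at a prior count scaled to depth, 6 on 1 scale for all 12 libraries and 5 (Arc was left out by the filter) with a mean of at least 20. They were 1 with no filter on low values, 0 without the treatment term, 104 with edgeR, 416 with DESeq2 and 2116 with array weights, which ran from 0.0806 for Flox saline pool 1-3 to 11.2 for cKO carrageenan pool 5-8. With log2 depth as a covariate 0 were called. Leaving out 1 library at a time gave 0 to 202 calls by limma and 5 to 871 by edgeR, both highest without cKO carrageenan pool 9-12. Without both libraries that stood apart the counts were 720 and 1284. Within saline it gave 0 to 24 calls (24 without Flox saline pool 8-10), within carrageenan 0 to 56 (56 without cKO carrageenan pool 9-12), and for the difference between treatments 0. The causes of these changes were not tested. None of the 6 called genes changed sign in any setting. Of 127 named or listed genes, 32 changed sign in at least 1 setting, 27 of them in the fit with depth, and 7 of the 32 were called in some other setting (Cd4, Dagla, Isg15, Krtdap, Mcm2, Ptger4 and Spi1).

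With the pool number as a replicate block nested in genotype, 2 genes were called, Hspa1b (limma adjusted p = 0.0441) and Lyz1 (0.0232), whereas Ccl8 (0.0591), Hspa1a (0.0591), Hsph1 (0.0653) and Arc (0.0770) were not, and with same-numbered pools averaged 0. The log2 ratio of Lyz1 to Lyz2 was 2.14 with pools averaged, at an exact permutation p of 0.1. Deviations from the group means of same-numbered saline and carrageenan pools correlated at 0.248, 0.525 and 0.610 in cKO, and at 0.0227, -0.0217 and 0.0851 in Flox, so every pair was above 0.1 in cKO and none in Flox, and the numbers were not taken to pair the pools. Depth limits genes of low level, since 1 read was worth from 0.268 (cKO saline pool 5-8) to 5.46 (Flox saline pool 1-3) normalized counts.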
